A study of Oryza sativa with 12 samples.

Results

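The genes described here are 3 membrane transport genes of rice: a choline transporter-related gene (LOC_Os02g36960), RXW8 (LOC_Os12g43720) and an amino acid-polyamine transporter gene (LOC_Os03g14910). They were taken by locus from the deposited table of genes that differed between short days (SD) and long days (LD) at the glume primordium differentiation stage. They are 3 of the 105 genes listed at that stage and of the 275 distinct genes listed at either stage. All 3 were listed as higher in SD, so the direction of their difference comes from how they were chosen, and their signals are given as a description without a test.

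Leaf RNA of Nongken 58S, a japonica rice whose pollen is sterile in long days, was hybridised to 12 Affymetrix rice arrays. At the glume primordium differentiation stage the groups were G-SSD (SD, 10 h light and 14 h dark) and G-SLD (LD, 15 h light and 9 h dark), and under the same day lengths they were P-SSD and P-SLD once pistil and stamen primordia formed, with 3 biological repeats in each group. All 4 groups were the same male-sterile line without a fertile control, had first been given SD to induce flowering, and gave the second fully expanded leaf at 1 night-time harvest. The values are linear signal intensities that the methods describe as normalised in dChip, and they are given below as mean ± s.d. (standard deviation). With 3 arrays a group, the precision of each mean is limited. The columns of the glume-stage table carry the letter of the other stage, and they were read as the glume stage from the name of the table, since the same values stand under glume-stage names in the study's supplement. The leaf label was not checked, since 0 of 5 fixed leaf and root marker genes were listed and the table of all probe sets names no genes.

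Choline is the head group of phosphatidylcholine, a main lipid of plant membranes, and plants make it by methylating phosphoethanolamine. Choline transporter-like proteins are multi-spanning membrane proteins, and in Arabidopsis one of them acts in the trafficking of membrane proteins and in the forming of phloem sieve plates. Polyamines such as putrescine and spermidine are small positively charged amines that cells take up through members of the amino acid-polyamine-organocation family. RXW8 is the Arabidopsis name of a relative of CSC1, a calcium-permeable cation channel gated by hyperosmotic stress.

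The choline transporter-related gene had the steadiest signals of the 3 genes. Its signal was 321, 339 and 375 in the G-SSD repeats, against 97.3, 84.7 and 98.7 in the G-SLD repeats. Every SD array was thus far above every LD array, and the repeats of a group lay close together. The mean was 345 ± 27.6 in G-SSD and 93.5 ± 7.71 in G-SLD (n = 3 each), a ratio of 3.69. Within repeats of the same number the ratio of SD to LD was 3.3, 4.0 and 3.8. The highest array of a group exceeded its lowest by 1.17-fold in both groups. The s.d. was 7.99% of the mean in SD and 8.24% in LD, where the medians over the 57 listed genes higher in SD were 20.2% and 30.5%. Because leaf is a mixture of cell types, more cells that express a gene and more RNA per cell cannot be told apart in these signals.

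RXW8 varied more, and mainly in SD. Its signal was 206, 76.1 and 143 in the G-SSD repeats, against 55.9, 42.2 and 39.0 in the G-SLD repeats. The groups did not overlap, but SD repeat 2 came near the LD arrays. The mean was 142 ± 64.8 in G-SSD and 45.7 ± 8.99 in G-SLD (n = 3 each), a ratio of 3.10. The ratio was 3.68 within repeats 1 and 3 and 1.81 within repeat 2. Without SD repeat 2 the ratio of means was 3.82, and without SD repeat 1 it was 2.40. The LD signals were dim, and as a check on dim signals the ratio was also taken after an offset. With 32 added to every signal the ratio was 2.24.

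The amino acid-polyamine transporter gene had 1 LD array far from the other two. Its signal was 528, 569.5 and 339 in the G-SSD repeats, against 99.2, 286 and 81.9 in the G-SLD repeats. LD repeat 2 lay close under the lowest SD array, and the groups still did not overlap. The mean was 479 ± 123 in G-SSD and 156 ± 113 in G-SLD (n = 3 each), a ratio of 3.08. Within repeats of the same number the ratio was 5.32, 1.99 and 4.14. Without G-SLD repeat 2 the ratio of means was 5.29, so that array decided the size of the difference. The s.d. was 72.6% of the mean in LD and 25.7% in SD.

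**Figure D1:**
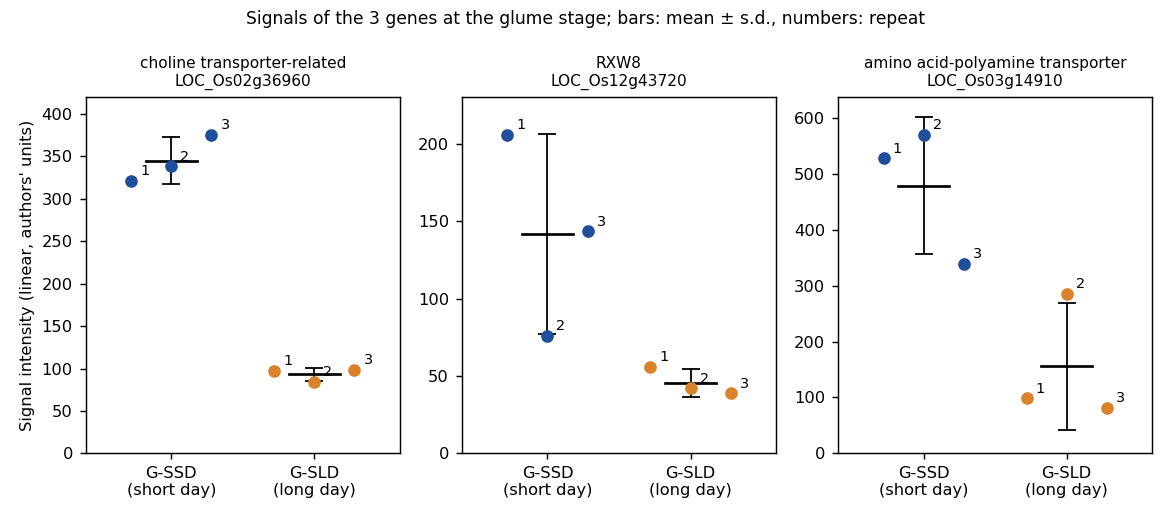
Signal intensity (linear scale from 0) of the 3 genes on the 6 glume-stage arrays, with G-SSD at the left and G-SLD at the right of each panel; each point is 1 array with its repeat number, and bars show mean ± s.d. The choline transporter-related gene forms tight groups (321 to 375 in SD, 84.7 to 98.7 in LD), whereas RXW8 has a low SD repeat 2 (76.1) and the polyamine transporter gene a high LD repeat 2 (286).

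The lowest SD signal exceeded the highest LD signal by 3.26-fold for the choline transporter-related gene, by 1.36-fold for RXW8 and by 1.19-fold for the amino acid-polyamine transporter gene. The first of these was the fifth widest separation among the 57 listed genes higher in SD, of which 5 had one of at least 3-fold. The median separation was 1.38-fold, so RXW8 lay near it and the polyamine transporter gene under it. Every SD signal was above every LD signal for all 3 genes. This held for 98.2% of the listed genes higher in SD, and for 4.65% of the 57194 probe sets of the array after quantile normalisation, or 1.44% with a ratio of at least 3 as well. The listing by fold, and possibly also by P value, had selected for such separation, and nothing is read from the 3 genes having it. In the order of the ratio the 3 genes held places 10, 11 and 12 of the table, between a protease inhibitor II transcript (AU101269, ratio 3.82) and the heat shock factor gene RHSF7 (LOC_Os03g06630, ratio 3.04). The lowest ratio among the listed genes higher in SD was 2.00, for LOC_Os01g23990 of unknown function, and genes outside the list were not analysed here.

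**Figure D2:**
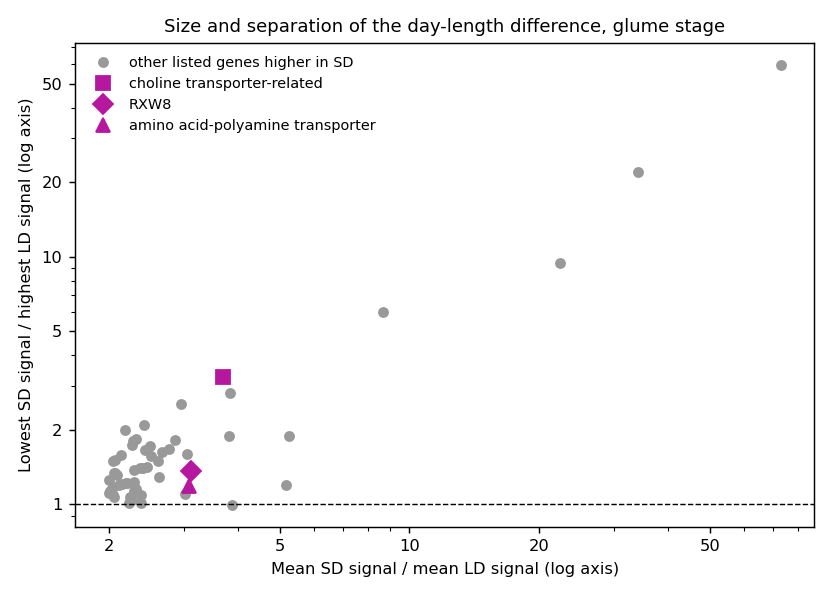
Ratio of the mean SD signal to the mean LD signal (horizontal, log axis) against the lowest SD signal over the highest LD signal (vertical, log axis) for the 57 genes listed as higher in SD at the glume stage; points above the dashed line at 1 have no overlap between the groups. The 3 genes have like ratios (3.69, 3.10 and 3.08) but the choline transporter-related gene, at 3.26, stands well above RXW8 (1.36) and the polyamine transporter gene (1.19) in separation.

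The 3 genes were not all alike in their pattern over the 6 glume-stage arrays. Likeness was measured as the root-mean-square difference of log2 signals over these arrays after each gene was centred on its mean, so that 0 is an identical pattern. It takes in the size of the difference between SD and LD as well as the spread between repeats. It was 0.49 between the choline transporter-related gene and RXW8, 0.70 between the choline and polyamine transporter genes and 0.82 between RXW8 and the polyamine transporter gene. The median distance to the other listed genes higher in SD was 0.55 for the choline transporter-related gene, 0.60 for RXW8 and 0.68 for the polyamine transporter gene. Both distances from the polyamine transporter gene were thus larger than its own median, that to the choline transporter-related gene only slightly. RXW8 and the choline transporter-related gene were nearer to each other than the medians of both.

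Other listed genes came closer to each. Nearest to the choline transporter-related gene were the gene of the plastid omega-3 fatty acid desaturase OsFAD7 (LOC_Os03g18070, distance 0.22), which desaturates chloroplast lipids, a folate/biopterin transporter gene (LOC_Os07g24230, 0.24) and a ferric reductase-like transmembrane component gene (LOC_Os04g36720, 0.32). Their ratios of SD to LD were 3.82, 2.95 and 2.42. OsFAD7 had signals of 84.6, 90.3 and 64.2 in the G-SSD repeats, against 22.9, 17.4 and 22.2 in the G-SLD repeats. Here too the groups were clearly apart, at 79.7 ± 13.7 in G-SSD and 20.8 ± 3.00 in G-SLD (n = 3 each). The LD signals were dim, and no ratio with an offset was taken for this gene. Nearest to RXW8 were the gene of the tonoplast dicarboxylate transporter (LOC_Os09g31130, 0.30), which carries malate across the vacuolar membrane, the transmembrane protein 16K gene (LOC_Os01g51040, 0.34) and BGIOSSFCE027484 of unknown function (0.38). The tonoplast gene had signals of 200.5, 120.2 and 172 in the G-SSD repeats, against 99.0, 63.7 and 66.2 in the G-SLD repeats. SD repeat 2 was its lowest SD array, as it was for RXW8, and its ratio of 2.15 was smaller.

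Nearest to the amino acid-polyamine transporter gene was a CCA1-like MYB gene (LOC_Os06g51260, distance 0.24), a relative of the dawn-phased MYB factors of the plant clock. Its signal was 772, 673 and 614 in the G-SSD repeats, against 149, 475 and 162 in the G-SLD repeats. The same array, LD repeat 2, stood high. The protein arginine N-methyltransferase 6 gene (LOC_Os10g34740, 0.37), whose enzyme methylates arginines in proteins, and an RPT2-like gene (LOC_Os11g02610, 0.39), named for an Arabidopsis protein of phototropism, came next. Of the 57 listed genes higher in SD, 5 had a signal in G-SLD repeat 2 over 2 times that in both other LD arrays, against 1 for G-SLD repeat 1 and 1 for G-SLD repeat 3. These 5 were the polyamine transporter gene, the CCA1-like MYB gene, the methyltransferase gene, OsDof (LOC_Os01g15900) and the splicing factor SF2 gene (LOC_Os01g21420), the last pair chosen after their values were seen. Of the 25360 probe sets kept by a filter on dim signals, 2.78% had such an excess in G-SLD repeat 2. The share was 2.42% in G-SLD repeat 1 and 3.61% in G-SLD repeat 3. These shares come from quantile normalised signals, where all arrays are given the same distribution. They therefore cannot show whether G-SLD repeat 2 was high in general. What set this array apart for these genes was not tested.

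**Figure D3:**
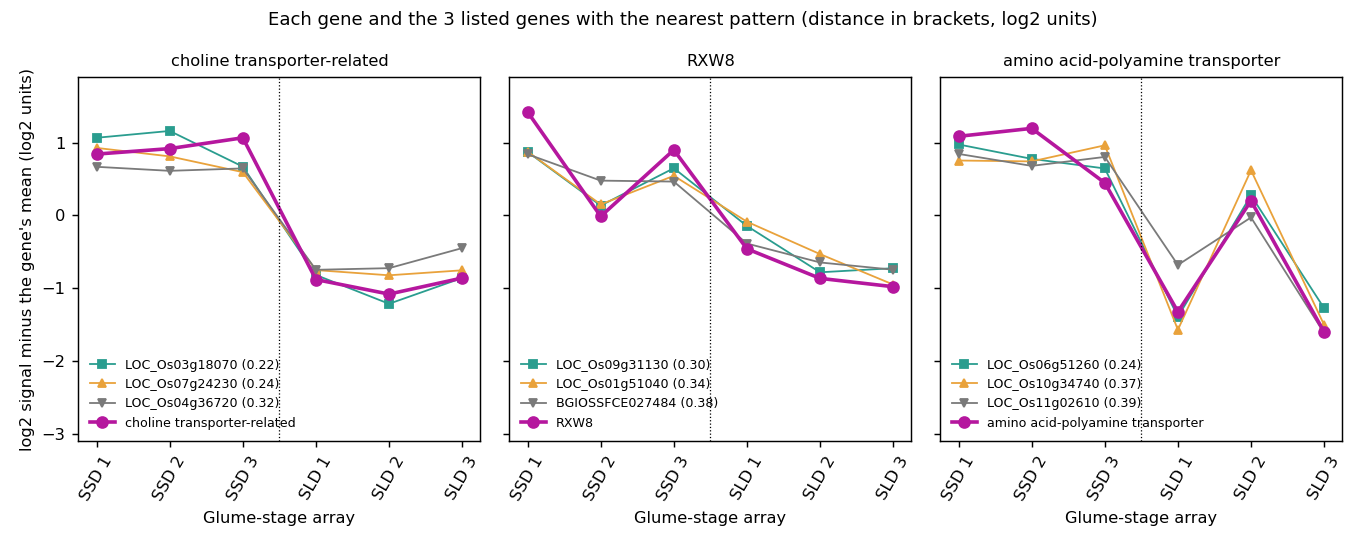
log2 signal minus the mean of the gene (log2 units) on the 6 glume-stage arrays, G-SSD left of the dotted line and G-SLD right of it, for each of the 3 genes (thick line) and the 3 listed genes with the nearest pattern; brackets give the root-mean-square distance, and lines only join the arrays of a gene. The polyamine transporter gene and its 3 neighbours have a raised G-SLD repeat 2, RXW8 and its nearest neighbour a low G-SSD repeat 2, and the choline transporter-related gene and its neighbours vary little within each group.

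At the later stage 0 of the 3 genes were listed, and their levels there were not analysed here. Of the 57 genes listed as higher in SD at the glume stage, 43 (75.4%) were not listed then, and the other 14 were all listed as higher in SD there. The table of that stage holds genes by a fold threshold, so absence from it does not show that a gene did not differ, and whether the effect of day length on the 3 genes changed between the stages was not tested.

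Besides the 3 genes, 2 genes listed at the glume stage and 2 at the later stage had annotations with a word of choline, phosphatidyl lipid or polyamine metabolism. Phosphoethanolamine N-methyltransferase (PEAMT, LOC_Os01g50030), the enzyme of the methylation route to choline, was listed as higher in SD at both. Its signal was 1171, 997 and 1108 in the G-SSD repeats, against 498, 544 and 375 in the G-SLD repeats. At the later stage it was 1215, 1012 and 569.9 in the P-SSD repeats, against 458, 551 and 316 in the P-SLD repeats. The groups overlapped at neither stage, though P-SSD repeat 3 came close to the LD arrays. The log2 difference of SD minus LD was 1.22 (standard error 0.28) at the glume stage and 1.04 (standard error 0.39) at the later stage. Limma gave an adjusted p of 1 at both. Only the listed genes were fitted, and the adjustment counted all 57194 probe sets of the array as if each had been tested. It was made so because the listed genes had been chosen on the same arrays, by fold and possibly also by P value. With 3 arrays a group few genes can pass it, so a gene not called is not shown to be unchanged.

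A second choline gene had the opposite direction. The gene of choline transporter-like protein 2 (LOC_Os04g58504) was listed at the later stage only, with 29.4, 13.5 and 49.3 in the P-SSD repeats, against 88.8, 71.8 and 63.8 in the P-SLD repeats. The SD arrays were all lower and were dim. Its ratio was 0.411, and limma gave an adjusted p of 1. The remaining gene of this group was that of 1-phosphatidylinositol 4-kinase (LOC_Os11g10420), which phosphorylates an inositol lipid, with 334 ± 92.9 in G-SSD and 149 ± 60.2 in G-SLD (n = 3 each), a ratio of 2.25. Its adjusted p was 1 by limma. The words did not take in glycerophosphodiester phosphodiesterase (LOC_Os02g31030), an enzyme that breaks down deacylated phospholipids, which was added after its values were seen. It was listed at the later stage, with 276, 182 and 109.5 in the P-SSD repeats, against 53.9, 111 and 64.3 in the P-SLD repeats. Its groups overlapped, and limma gave an adjusted p of 1.

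No gene listed at either stage had an annotation that named a polyamine or an enzyme of its synthesis, apart from the polyamine transporter gene itself.

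Transport genes were found by annotations with transporter, transport system, channel, carrier, permease, antiporter, symporter or exchanger. Of the 105 genes listed at the glume stage, 6 genes other than the 3 had such an annotation. Here 3 were higher and 3 lower in SD, and limma called 0 of the 6 over the array, with all 6 at an unadjusted p under 0.05. So were all 105 listed genes, the 3 genes counted in, and nothing is read from that count. The share called among all listed genes was 1.9%. Few genes can pass such an adjustment with 3 arrays a group. The 0 calls among transport genes, here or at the later stage, thus do not show that they did not differ. The folate/biopterin transporter gene had 111 ± 12.8 in G-SSD and 37.6 ± 1.05 in G-SLD (n = 3 each), a ratio of 2.95. By limma its adjusted p was 0.92. The gene of cyclic nucleotide-gated ion channel 15 (LOC_Os02g41710), a cation channel, was 2.52-fold higher in SD. Among the lower genes, an amino acid transporter gene (LOC_Os01g43040) had 34.3, 33.3 and 23.5 in the G-SSD repeats, against 81.8, 80.8 and 71.4 in the G-SLD repeats. Its groups did not overlap, its ratio was 0.389 and limma's adjusted p was 1. The other lower genes were those of an ABC-type Co2+ transport system (LOC_Os10g38910, ratio 0.493) and of oligopeptide transporter 4 (LOC_Os02g46850, ratio 0.206, adjusted p = 0.38 from limma). Among the 9 transport genes counted at this stage, these 6 and the 3 described here, the 3 genes had the highest ratios. RXW8 was counted in although its annotation holds none of the words. Other genes of this stage that may act in transport without these words were not counted. The 3 genes were chosen from this same comparison, so nothing is read from that order.

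At the pistil/stamen stage 11 genes had such annotations, 6 higher and 5 lower in SD, and limma called 0 of them, with all 11 at an unadjusted p under 0.05, as were all 201 entries of the table, which holds 200 distinct genes. The share of entries called was 4.48%, or 9, against 0 when repeats of 1 number were taken as pairs (block in limma), and 5.04% of the probe sets of the array had every SD signal above every LD signal at this stage. The tonoplast dicarboxylate transporter gene, the nearest in pattern to RXW8, was listed here too, with 308, 254 and 125 in the P-SSD repeats, against 42.4, 114 and 34.7 in the P-SLD repeats. Its groups did not overlap, and its ratio was 3.58. The ABC-type Co2+ transport gene was again lower in SD, at a ratio of 0.470. Of the genes listed only at this stage, those of the cation transporters HKT3 (LOC_Os01g34850) and HKT9 (LOC_Os06g48800), which carry sodium or potassium, were 2.84-fold and 2.70-fold higher in SD. In both, the groups overlapped. The HKT3 signal was 0.872 to 1.10 times that of HKT9 on the 6 arrays, and whether the probe sets of both read the same transcripts was not tested. A purine permease gene (LOC_Os04g49757) had the lowest ratio, 0.264. The others were the genes of a protein transporter (LOC_Os07g49260, 2.71) and a mitochondrial calcium-binding carrier (LOC_Os06g40200, 2.39), and, lower in SD, those of oligopeptide transporter 9 (LOC_Os06g03560, 0.462), a phosphate carrier (LOC_Os04g37600, 0.422) and choline transporter-like protein 2. The words did not take in every gene that may act in transport. Among those missed, aquaporin PIP2.2 (LOC_Os02g41860), multidrug resistance protein 4 (LOC_Os01g50100), transparent testa 12 (LOC_Os10g11354) and metal tolerance protein C3 (LOC_Os03g12530) were listed as higher in SD. Aquaporin TIP2.1 (LOC_Os02g44080) was listed as lower. The counts by direction thus hold only for annotations with these words.

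**Figure D4:**
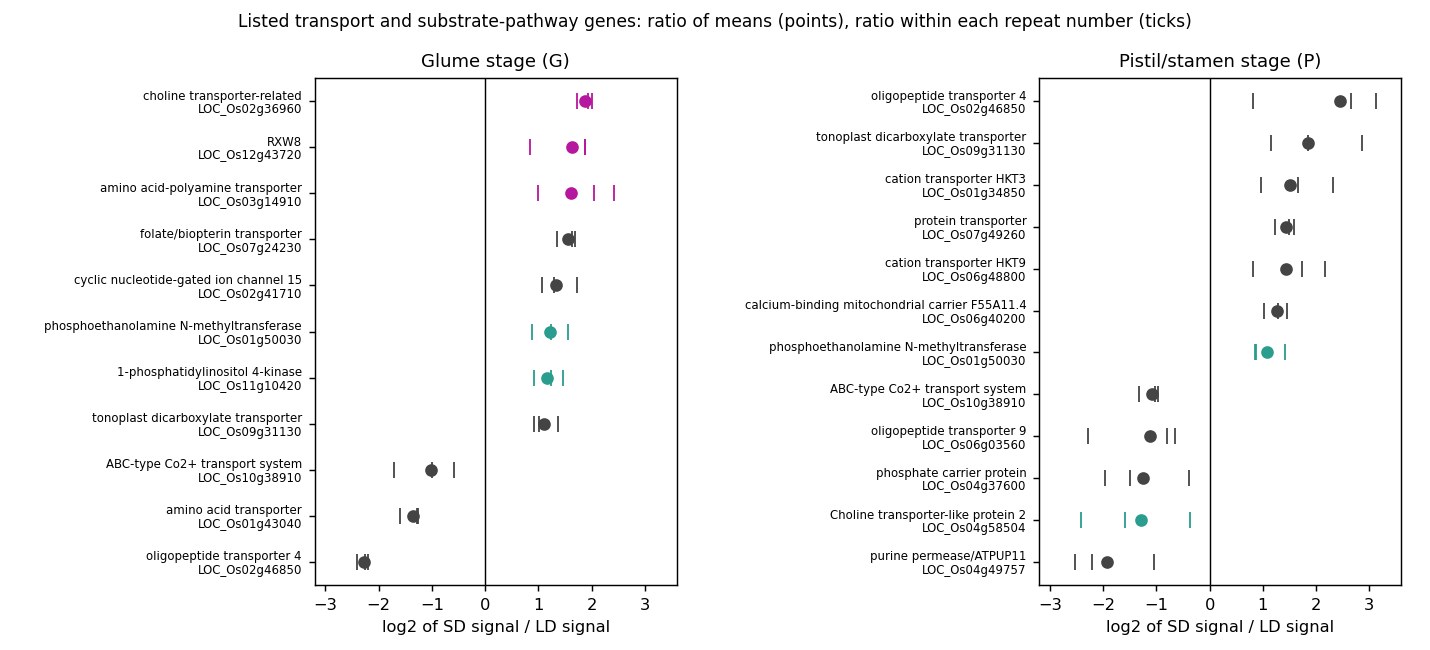
log2 of the SD signal over the LD signal for the transport genes and the genes of choline and phospholipid metabolism listed at each stage; points are ratios of group means, ticks are ratios within each repeat number, the 3 genes are in magenta, genes of the choline and phospholipid group in green and other transport genes in grey. The 3 genes head the glume-stage panel at ratios of 3.69, 3.10 and 3.08, and they are not in the panel of the later stage.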

How the data were processed

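The authors deposited, for each stage, a table of genes past a fold of 2 in either direction (0.5 for lower ones) with 6 signal intensity values, which the methods describe as produced in GCOS 1.4 and normalised by invariant set in dChip, where 5% of perfect-match signals served as background. Their columns of fold and P value were not used. They also deposited signal intensity for 57381 probe sets on 12 arrays without gene names, whose normalisation the sources used here do not state. That table was quantile normalised on the log2 scale without its 187 control and reporter probe sets, since array medians ran from 6.92 to 9.18. It gave only shares of probe sets. The dim-signal filter kept probe sets that reached the 60th percentile on at least 3 arrays.

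Samples were grouped by their titles. All listed genes, the 3 described included, were fitted with limma 3.58.1 in R 4.3.3 (log2 signals, trend, two-sided, threshold 0.05). The Benjamini-Hochberg adjustment counted 57194 probe sets as tested, although only listed genes were fitted. No p-values of the 3 genes are given, but they stand in the fit and in the counts over all listed genes. A run on simulated data checked that the code recovers large changes. Its spread between repeats was set beforehand and not taken from these arrays, so it does not show how the fit performs on them. The p-values measure only the spread between these repeats. The 3 genes, the word lists and the tests were chosen with earlier results of these data known. Named genes were the 3 genes, the word lists, the 3 nearest patterns of each and the neighbours in ratio. Deviations of same-numbered arrays from their group means had correlations of 0.22, 0.29 and 0.51 at the pistil/stamen stage. At the glume stage the correlations were 0.20, -0.0015 and 0.32. Only that of glume-stage repeat 2 fell under a bound of 0.1 set for pairing. Whether the stages differ in pairing was not tested. The standard errors and p-values given come from the fit without a block, so they leave any pairing out. The block was an alternative at both stages. Over all entries of the pistil/stamen stage it moved the calls from 9 to 0. Any pairing is read from these data alone, as the labels name no shared batch. No sequences of the 3 genes were used here.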

Additional observations from a re-analysis of the deposited data

Results flagged for a closer look

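The gene of oligopeptide transporter 4 (LOC_Os02g46850) had opposite directions at the stages. The ratio of SD to LD was 0.206 at the glume stage, where every SD array was below every LD array. It was 5.45 at the pistil/stamen stage, where every SD array was above every LD array. The signal there was 746, 740 and 182 in the P-SSD repeats, against 85.4, 118 and 103 in the P-SLD repeats. SD repeat 3 thus lay far under the other SD arrays and nearer to the LD arrays. Limma called the gene at neither stage. The difference between the stages was not tested here.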

How the results depend on the processing

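With an offset of 32 the ratio of the choline transporter-related gene was 3.00. With medians that of the polyamine transporter gene was 5.32. With 1 array left out the ratio ran from 3.52 to 3.82 for the choline transporter-related gene, from 2.40 to 3.82 for RXW8 and from 2.49 to 5.29 for the polyamine transporter gene, whose highest value was that without G-SLD repeat 2.

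Probe sets with every SD signal above every LD signal numbered 2660 at the glume stage and 2884 at the pistil/stamen stage (5.04%). With the filter on dim probe sets they numbered 1138 (4.49%) and 1213 (4.78%), because fewer were counted. As deposited they numbered 3315 (5.80%) at the glume stage and 1893 (3.31%) at the pistil/stamen stage, which turned round which stage had more, and the cause was not tested. With 1 array left out, which leaves fewer arrays to separate, they ran from 5109 to 5938 and from 5202 to 6865.

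Limma called 0 of the other transport genes and 0 of the choline and phospholipid genes at either stage, also with the replicate block, without a trend, with the offset and with each array left out (0 to 0). Adjusted over the listed genes alone it called 6 and 11 transport genes, and 2 and 2 of the choline and phospholipid genes, whose alternatives were chosen after seeing the data. Over all entries of the tables the replicate block moved the calls to 3 at the glume stage, against 2 without it, and to 0 at the pistil/stamen stage, against 9 without it. The alternatives planned for the 3 genes at the pistil/stamen stage were not run, because their signals there were not analysed.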
